A study of Mus musculus with 12 samples.

Results

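The circular RNAs (circRNAs) of 4 mouse genes, Ezh2, Eed, Asxl2 and Kdm6a, were followed through 4 cell lines. A circRNA is made when the end of an exon is spliced back to the start of the same or an earlier exon, and it is counted by the reads that cross this back-spliced junction. The circRNAs described are the rows of the deposited tables whose host gene is exactly one of these symbols: 31 circRNAs of the 13474 listed, 13 from Ezh2, 4 from Eed, 11 from Asxl2 and 3 from Kdm6a. Of these, 30 had at least 1 read and 1 of the Asxl2 circRNAs had none. The 4 hosts were picked because their circRNAs differed between 4T1 and Eph4-ev, so their values in that comparison are given as a description and without a test.

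Total RNA was digested with RNase R, which degrades linear RNA, and sequenced from 3 libraries per line. The tumour lines were 4T1, breast cancer cells, and B16F10, melanoma cells, and each was set against a non-tumour line of its lineage, Eph4-ev breast epithelial cells and Melan-a melanocytes. Neither a treatment nor an added allele is named for any line, and the sources used here do not spell out the suffix "ev". With 1 line of each kind per lineage, a tumour effect cannot be told apart from anything else that sets the lines apart. Nothing says that the 3 libraries came from separate cultures, so p-values measure only the spread between these libraries.

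The libraries were shallow. They held 15572 to 44625 junction reads in 4T1, 50648 to 56649 in Eph4-ev, 16697 to 20011 in B16F10 and 25072 to 33557 in Melan-a. Levels are given as the authors' RPM, each count scaled to the junction reads of its library. A circle has 1 junction whatever its length, so these levels were not divided by length. Whether the length of a circle changes how often its junction is read was not tested. RPM is a share of the circRNA reads, so the number of circles per cell, the number of cells and the amount of linear RNA cannot be told apart in it. The markers of the lineages stood where the labels put them. Of 10 epithelial gene symbols 6 had circRNA reads in 4T1 and 6 in Eph4-ev. Inadl, with reads, and Patj, without, are symbols of the same gene. Of 11 melanocyte genes 8 had reads in B16F10 and 9 in Melan-a. All 11 melanocyte genes were at 0 in 4T1, and in Eph4-ev the one with reads was Mitf, with 5 in replicate 2, so that these genes summed to at most 88.3 RPM there. The 5 immune genes were at 0 in every line, the 7 mesenchymal genes summed to at most 359 RPM in any library, and the epithelial genes summed to at most 118 RPM in any B16F10 or Melan-a library.

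Polycomb proteins keep developmental genes silent through marks on histones. Polycomb repressive complex 2 (PRC2) methylates lysine 27 of histone H3; Ezh2 is its catalytic subunit, and Eed binds the methylated lysine and stimulates the enzyme. Kdm6a (UTX) removes the same methyl groups and is encoded on the X chromosome, while Asxl2 is a partner of the deubiquitinase Bap1 in the complex PR-DUB, which removes the ubiquitin that Polycomb repressive complex 1 (PRC1) puts on histone H2A. The label "Polycomb" therefore covers a writer (Ezh2), its reader (Eed), an eraser of its mark (Kdm6a) and a cofactor of an enzyme that opposes PRC1 (Asxl2). What was measured here is their circular transcripts, not their messenger RNA or protein.

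Each host had 1 circRNA that carried most of its reads, and the sequences around these junctions are shown because they are what the reads identify. The coordinates are on mm10, and exon numbers and bases come from GENCODE M21 transcripts. Each line gives the last 20 bases of the last exon in lower case and the first 20 bases of the first exon in capitals, on the strand of the gene.

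Ezh2 exons 2 to 3, chr6:47576536-47577667, minus strand: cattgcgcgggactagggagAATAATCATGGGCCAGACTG
Ezh2 exons 2 to 3, shorter exon 3, chr6:47576563-47577667, minus strand: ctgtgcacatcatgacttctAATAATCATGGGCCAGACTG
Ezh2 exons 2 to 8, chr6:47551732-47577667, minus strand: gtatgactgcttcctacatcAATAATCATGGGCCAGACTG
Eed exons 9 to 11, chr7:89955531-89962361, minus strand: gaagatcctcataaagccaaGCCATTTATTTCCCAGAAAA
Asxl2 exons 2 to 5, chr12:3442474-3457209, plus strand: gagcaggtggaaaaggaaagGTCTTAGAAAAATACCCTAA
Kdm6a exons 3 to 6, chrX:18199158-18222877, plus strand: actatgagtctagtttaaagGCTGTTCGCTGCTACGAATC

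The 3 Ezh2 junctions shown share their capitals, the start of exon 2, which hold the annotated start codon of Ezh2 (the ATG after the first 7 bases, which are 5′ UTR). Of the 13 Ezh2 circRNAs 9 begin at exon 2 and so contain this start codon; no circRNA of Eed, Asxl2 or Kdm6a contains one. These 9 carried 93.0% of the 2249 Ezh2 junction reads, and the 3 that begin at exon 4 carried 6.71%. Asxl2 had the same layout on a smaller scale: 5 circRNAs begin at exon 2 and carried 94.1% of its 888 reads, and 6 begin at exon 4. Counted by circRNAs and not by reads, 32.9% of all mapped circRNAs of the series begin at exon 2, against 9 of 13 for Ezh2 and 5 of 11 for Asxl2. The share of reads was not taken over the series.

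The leading Ezh2 circRNA joins exon 3 back to exon 2 and is 253 bases long, of which 246 are coding. Reading from the start codon round the circle, the frame passes the junction and meets a stop after 92 codons, 10 of them past the junction; this is read from the annotated sequence, and no translation was measured. The other leading circRNAs lie inside the coding sequence: Eed exons 9 to 11 with 339 bases, Asxl2 exons 2 to 5 with 343 and Kdm6a exons 3 to 6 with 339. Those of Eed and Kdm6a are a multiple of 3 bases long, as are 7 of the 31 circRNAs in all. Long introns flank 3 of the 4. The intron before the circle is 17226 bases for Ezh2, 15261 for Asxl2 and 35710 for Kdm6a, and the intron after it is 18241, 12268 and 10982 bases for the same genes. Eed is the exception, with 2367 bases before and 467 after, against medians of 7663 and 5491 bases over all mapped circRNAs.

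The 2 forms of the leading Ezh2 circRNA differ in where exon 3 ends. The longer exon 3 ends with 27 more bases, shown in capitals after the last 15 bases that both forms share.

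End of Ezh2 exon 3, chr6, minus strand: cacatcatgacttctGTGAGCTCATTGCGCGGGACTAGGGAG

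Both ends are annotated, and both keep the reading frame, since 27 is a multiple of 3. The shorter form made up 22.1% of the reads of both forms in 4T1 (17 of 77, 95% exact binomial interval 13.4% to 33.0%) and 21.0% in Eph4-ev (127 of 604, 17.8% to 24.5%). It made up 18.6% in B16F10 (91 of 490, 15.2% to 22.3%) and 21.0% in Melan-a (105 of 499, 17.5% to 24.9%). The 4 intervals overlap, and each holds the pooled shares of the other lines. A difference between the lines in the use of this exon end was not tested. Such intervals cover counting error only.

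**Figure D1:**
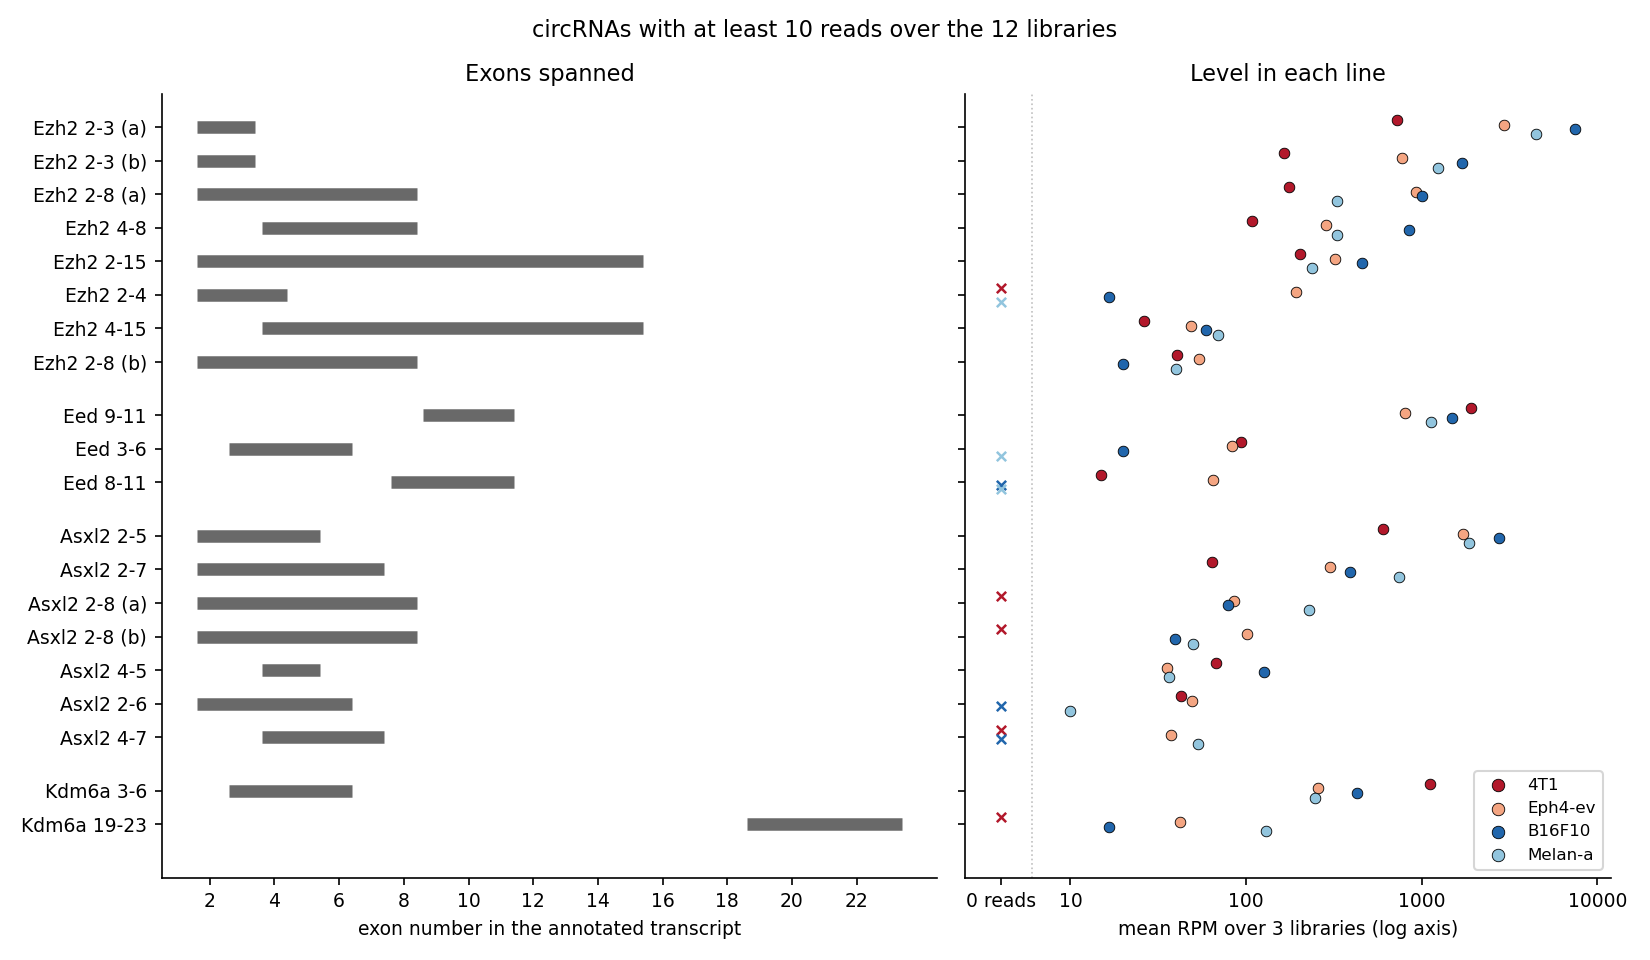
The 20 circRNAs with at least 10 reads over the 12 libraries. Left, the exons each one spans, by exon number; (a) and (b) are circRNAs over the same exon numbers, which differ in an exon end for Ezh2 and have a different exon 8, from another transcript, for Asxl2. Right, its mean RPM over 3 libraries in each line on a log axis, with crosses left of the dotted line for lines without a read. In Eph4-ev, B16F10 and Melan-a the Ezh2 circRNA of exons 2 to 3 stands farthest right, while in 4T1 Eed exons 9 to 11 and Kdm6a exons 3 to 6 do; 4T1 lies left of Eph4-ev for each of the 8 Ezh2 circRNAs.

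Ezh2 was the most abundant of the 4 hosts, and its circRNAs were lowest in 4T1 and highest in B16F10. Summed over its circRNAs, Ezh2 had 1477, 1240 and 1838 RPM in the 3 libraries of 4T1, from 23, 22 and 82 reads, against 5647, 5472 and 5689 RPM in Eph4-ev, from 286, 310 and 316 reads. It had 11544, 11332 and 11978 RPM in B16F10, against 5504, 9089 and 5724 RPM in Melan-a. The 4T1 libraries thus lay below all others, and the B16F10 libraries above all others. The means were 1518 ± 301 RPM in 4T1 and 5603 ± 115 RPM in Eph4-ev, and 11618 ± 329 RPM in B16F10 and 6772 ± 2009 RPM in Melan-a (SD, n = 3 each). Melan-a and Eph4-ev overlapped, and the 2 lineages come from tables made separately, so no test was made across them. Ezh2 alone supplied 1.16% of all junction reads in B16F10.

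Eed had 2055, 2368 and 1658 RPM in 4T1, against 928, 1253 and 684 RPM in Eph4-ev. It had 1149, 1417 and 1976 RPM in B16F10, against 1197, 1579 and 636 RPM in Melan-a. Its order ran 4T1, B16F10, Melan-a, Eph4-ev, and each line overlapped its neighbour in that order; only 4T1 and Eph4-ev, at its ends, stood fully apart within a lineage. The PRC2 catalytic subunit and its reader therefore lay at opposite ends in 4T1: Ezh2 circRNAs were at their lowest level there and Eed circRNAs at their highest. In 4T1 Eed had 32, 42 and 74 reads and Ezh2 23, 22 and 82, so that which was the more read differed between libraries, while in B16F10 Ezh2 had 623 reads and Eed 80.

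Asxl2 had 771, 1071 and 560 RPM in 4T1, against 2192, 2524 and 2358 RPM in Eph4-ev. It had 3448, 3718 and 2995 RPM in B16F10, against 2513, 3218 and 3737 RPM in Melan-a. 4T1 stood alone at the low end, and the neighbours among the other 3 lines overlapped.

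Kdm6a was the sparsest host, with 24 to 82 reads per line. It had 1605, 1240 and 784 RPM in 4T1, against 217, 530 and 216 RPM in Eph4-ev. It had 450, 472 and 419 RPM in B16F10, against 239, 417 and 477 RPM in Melan-a. Every 4T1 library lay above every library of the other lines, and those lines overlapped with each other. The X-linked eraser and the writer of the mark were thus placed in opposite order in the mammary lines, where Kdm6a averaged 1210 ± 411 RPM in 4T1 and 321 ± 181 RPM in Eph4-ev (SD, n = 3 each).

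**Figure D2:**
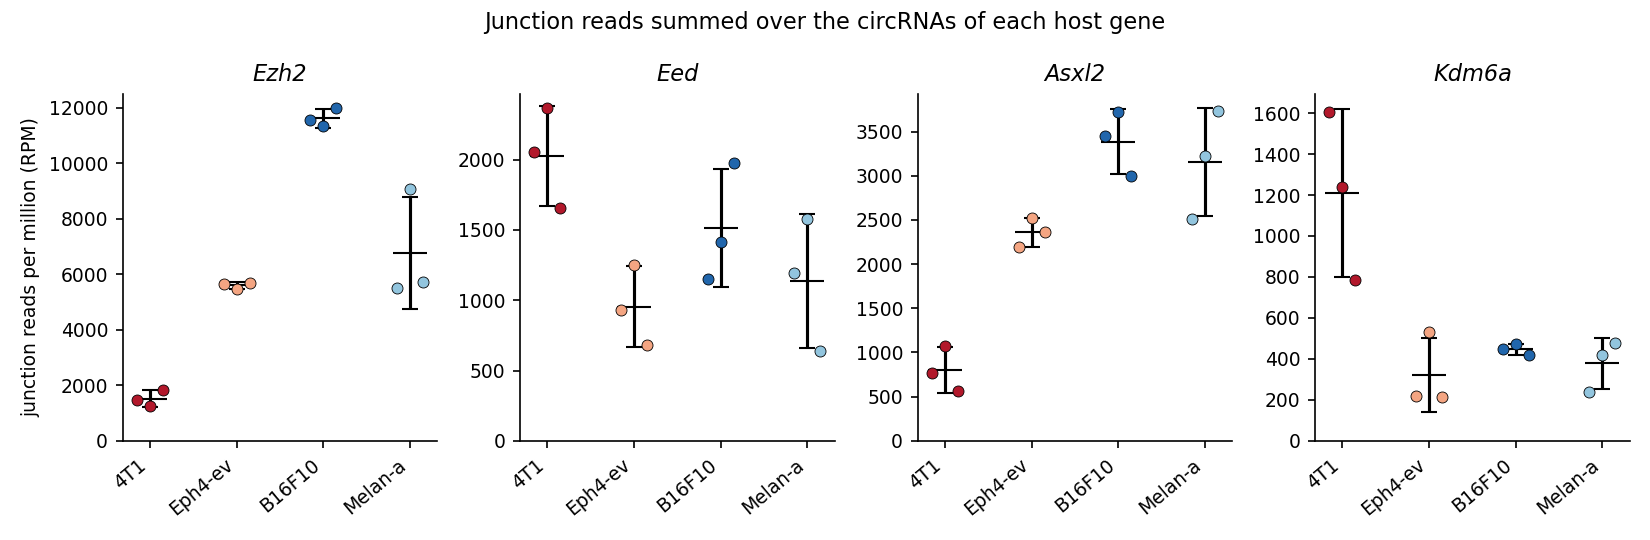
RPM summed over the circRNAs of each host, by line. Points are libraries, and bars are the mean ± SD of 3 libraries. 4T1 is lowest for Ezh2 (1240 to 1838 RPM) and Asxl2 (560 to 1071 RPM) and highest for Kdm6a (784 to 1605 RPM).

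In 4T1 relative to Eph4-ev the log2 fold was -1.98 for Ezh2 (SE 0.22) and -1.75 for Asxl2 (SE 0.30), and it was 0.92 for Eed (SE 0.30) and 1.71 for Kdm6a (SE 0.47), from edgeR's quasi-likelihood fit over all hosts. None of these 4 is offered as a test, since the genes were chosen on this comparison. Libraries of the lines did not overlap for any of the 4, as was the case for 36.1% of the 1515 hosts tested, and 17.5% of those hosts passed an adjusted p under 0.05. Circular reads of epithelial marker genes moved with line too: their sum was 1349 to 2650 RPM in 4T1 libraries and 4265 to 4609 RPM in Eph4-ev libraries. Of the 6 with reads, 3 had the lower mean in 4T1: Inadl with 310 RPM in 4T1 and 1553 RPM in Eph4-ev, Myo5b with 257 RPM in 4T1 and 1417 RPM in Eph4-ev, and Esrp1 with 469 RPM in 4T1 and 792 RPM in Eph4-ev. The other 3 had the higher mean in 4T1: Epcam with 280 RPM in 4T1 and 170 RPM in Eph4-ev, Grhl2 with 646 RPM in 4T1 and 536 RPM in Eph4-ev, and Cdh1 with 42.8 RPM in 4T1 and 13.2 RPM in Eph4-ev. The part of these genes in the values of the 4 hosts was not tested.

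The lower level of Ezh2 and Asxl2 in 4T1 was spread over their circRNAs. Of the 31 circRNAs 9 passed the filter on low counts in the mammary table: 5 of Ezh2, 2 of Asxl2 and 1 each of Eed and Kdm6a. The Ezh2 circRNA of exons 2 to 3 had 10, 12 and 38 reads in 4T1, against 153, 159 and 165 in Eph4-ev, a log2 fold of -2.19 (SE 0.26). Its shorter form had 1, 2 and 14 reads in 4T1, against 35, 37 and 55 in Eph4-ev, also -2.19 (SE 0.58). That of exons 2 to 8 had 1, 1 and 18 reads in 4T1, against 51, 69 and 32 in Eph4-ev, or -2.26 (SE 0.65). In all 3, each 4T1 library lay below each Eph4-ev library in RPM.

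The Ezh2 circRNA of exons 4 to 8 had 0, 3 and 7 reads in 4T1, against 16, 11 and 19 in Eph4-ev (log2 fold -1.44, SE 0.84). That of exons 2 to 15 had 7, 2 and 2 reads in 4T1, against 21, 11 and 20 in Eph4-ev (-1.11, SE 0.84), and it was the only one of the 9 whose libraries overlapped between the lines. Libraries did not overlap for the other 8, and for 37.6% of the 1869 circRNAs tested in this table. Among the 8, the nearest libraries of Asxl2 exons 2 to 7 stood at 193 RPM in 4T1 and 194 RPM in Eph4-ev. Those of Ezh2 exons 4 to 8 stood at 169 RPM in 4T1 and 194 RPM in Eph4-ev. Both gaps are under 1 read, which is worth 64.2 and 56.4 RPM in these 4T1 libraries. One Ezh2 circRNA was read almost only in Eph4-ev. Exons 2 to 4 (chr6:47558178-47577667) had 0 reads in each 4T1 library, against 4, 13 and 15 in Eph4-ev, and it was at least 5.10-fold lower in 4T1, taking a floor of 3 reads over the 3 libraries. It had 1, 0 and 0 reads in B16F10, against 0 in each Melan-a library. Within Ezh2 reads it made up 0 of 127 in 4T1, which allows up to 2.36% by a floor of 3 reads and up to 2.86% by the 95% exact interval, and 3.51% in Eph4-ev (32 of 912, 95% exact interval 2.41% to 4.92%). The exact intervals overlap, which does not decide whether the shares differ. By library the share was 0%, 0% and 0% in 4T1, against 1.40%, 4.19% and 4.75% in Eph4-ev. The difference in this share was not tested.

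For Asxl2 the circRNA of exons 2 to 5 had 6, 17 and 21 reads in 4T1, against 81, 113 and 87 in Eph4-ev (log2 fold -1.77, SE 0.35). That of exons 2 to 7 had 3, 0 and 0 reads in 4T1, against 22, 11 and 15 in Eph4-ev; its pooled ratio of RPM was 0.131 (95% exact counting interval 0.0260 to 0.405). The pair that runs on to an exon numbered 8 ends in different exons, at 3484608 in the transcript Asxl2-207 and at 3476169 in Asxl2-205, and had no 4T1 read, against 14 and 17 for Eph4-ev, at least 2.23-fold and 2.71-fold lower in 4T1. Exons 4 to 5, a circle of 257 bases, had 0, 2 and 4 reads in 4T1, against 0, 3 and 3 in Eph4-ev, too few to place the lines. Exons 2 to 6 had 2, 0 and 0 reads in 4T1, against 3, 5 and 0 in Eph4-ev, and exons 4 to 7 had 0 reads in 4T1, against 2, 0 and 4 in Eph4-ev.

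The higher values of Eed and Kdm6a in 4T1 rested mostly on 1 circRNA each. Eed exons 9 to 11 had 29, 42 and 68 reads in 4T1, against 39, 63 and 29 in Eph4-ev, which after scaling is a log2 fold of 1.00 (SE 0.33). Its other circRNAs, exons 3 to 6 and 8 to 11, had 7 and 2 reads in all in 4T1, against 13 and 11 in Eph4-ev. After scaling, exons 3 to 6 averaged 94.1 RPM in 4T1 and 82.7 RPM in Eph4-ev. Exons 8 to 11 averaged 14.9 RPM in 4T1 and 65.1 RPM in Eph4-ev. Kdm6a exons 3 to 6 had 25, 17 and 35 reads in 4T1, against 11, 25 and 6 in Eph4-ev (1.83, SE 0.54). The Kdm6a circRNA of exons 19 to 23, farther along the gene, had 0 reads in each 4T1 library, against 0, 1 and 6 in Eph4-ev. Kdm6a exons 6 to 10 averaged 94.0 RPM in 4T1 and 23.5 RPM in Eph4-ev, in each line from replicate 2 alone.

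The genes were picked on the mammary comparison, so the melanocyte lines were tested. Earlier results of these data were known at the choice, so these p-values are not fully independent of it. None of the 4 hosts passed an adjusted p under 0.05 between B16F10 and Melan-a by edgeR, where 7.13% of 898 tested hosts did. At an unadjusted p under 0.05, which 21.2% of hosts reached, Ezh2 passed alone among the 4. Ezh2 had a fold of 0.67 on the log2 scale (SE 0.24; adjusted p = 0.104 by edgeR), higher in 3 of 3 B16F10 libraries than in any Melan-a library, as for 16.3% of hosts. The call turned on the method and on 1 library. DESeq2, which called 6.01% of hosts, gave a log2 fold of 0.73 with an adjusted p of 0.0399, and leaving out Melan-a replicate 2, the Melan-a library with most Ezh2 reads (305), gave 0.98 with an edgeR adjusted p of 0.000628; over all alternatives the adjusted p ran from 0.000628 to 0.282. The circRNAs of melanocyte markers summed to 10978 to 12743 RPM in B16F10 libraries and 5525 to 9476 RPM in Melan-a libraries. Most of this was Pmel, with 9037 RPM in B16F10 and 4768 RPM in Melan-a on average, while Trpm1, with 458 RPM in B16F10 and 873 RPM in Melan-a, and Sox10, with 0 in B16F10 and 49.7 RPM in Melan-a, lay the other way. Their part in the Ezh2 value was not tested.

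The other hosts had smaller folds. Eed had a fold of 0.29 on the log2 scale (SE 0.38; adjusted p = 0.736 by edgeR), Kdm6a of 0.14 (SE 0.52, adjusted p = 0.917) and Asxl2 of 0.01 (SE 0.25, adjusted p = 0.996), and the libraries of the lines overlapped for all 3. The signs for Asxl2 and Kdm6a turned when single libraries were left out. Whether a host's fold differed between the lineages was not tested.

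At the level of single circRNAs, 1 of the 9 that passed the filter in the melanocyte table was called, against 10.9% of all 874 tested. It was Ezh2 exons 2 to 8, with 19, 17 and 18 reads in B16F10, against 5, 13 and 10 in Melan-a: 1010 ± 64.6 RPM in B16F10 and 328 ± 112 RPM in Melan-a (SD, n = 3 each), or 1.52 on the log2 scale (SE 0.44; adjusted p = 0.0360 by edgeR). This call was fragile. It was lost with DESeq2 (adjusted p = 0.116), without the filter (0.209) and when any 1 library other than Melan-a replicate 2 was left out (0.0657 to 0.164), while the log2 fold stayed between 1.23 and 1.68.

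The other Ezh2 circRNAs were not called. Exons 2 to 3 had 152, 119 and 128 reads in B16F10, against 89, 219 and 86 in Melan-a (0.64 on the log2 scale, SE 0.30; adjusted p = 0.201 by edgeR), and without Melan-a replicate 2 the value was 1.04 with an adjusted p of 0.00174. Its shorter form had 31, 31 and 29 reads in B16F10, against 21, 48 and 36 in Melan-a (0.39, adjusted p = 0.535). Exons 4 to 8 had 13, 18 and 14 reads in B16F10, against 13, 9 and 5 in Melan-a (1.30, adjusted p = 0.103), and exons 2 to 15 had 13, 4 and 8 reads in B16F10, against 5, 8 and 7 in Melan-a (0.87, adjusted p = 0.439). Of the 9 circRNAs of the 4 hosts that passed the filter, 8 had a positive fold. The share of positive folds over all tested circRNAs was not counted, and their median log2 fold was 0.04. B16F10 libraries lay wholly above those of Melan-a for 6 of the 9, as for 16.9% of tested circRNAs. Ezh2 alone gave 5 of the 9 and 4 of these 6, and its circRNAs share its RNA, so they are not separate cases. A circRNA could pass the filter through the libraries of 1 line, so these counts hold only for circRNAs that passed it. Without the filter, the circRNAs it had left out had log2 folds of both signs, from -4.20 to 2.14.

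Within Ezh2, the share of the circRNA called above varied between the lines, and this was not tested. Among Ezh2 reads, the circRNA of exons 2 to 8 made up 15.7% in 4T1 (20 of 127, 95% exact interval 9.89% to 23.3%) and 16.7% in Eph4-ev (152 of 912, 14.3% to 19.2%). It made up 8.67% in B16F10 (54 of 623, 6.58% to 11.2%) and 4.77% in Melan-a (28 of 587, 3.19% to 6.82%). By library the share was 4.35%, 4.55% and 22.0% in 4T1, 17.8%, 22.3% and 10.1% in Eph4-ev, 8.23%, 8.85% and 9% in B16F10, and 3.62%, 4.26% and 6.94% in Melan-a. Every B16F10 library was thus above every Melan-a library, though their pooled intervals overlap. How many other circRNAs stood apart in share was not counted. In 4T1 the pooled share came mostly from replicate 3, which gave 18 of the 20 reads. A second end lies 15 bases farther on, past the usual end of exon 8; the shared bases are in lower case and the added ones in capitals.

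Longer Ezh2 exon 8, chr6, minus strand: actgcttcctacatcGTAAGTGCAGTTATT

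Its circRNA with exon 2 (chr6:47551717-47577667) had 1, 1 and 0 reads in 4T1, against 1, 5 and 3 in Eph4-ev, and 0, 0 and 1 in B16F10, against 3, 0 and 0 in Melan-a.

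**Figure D3:**
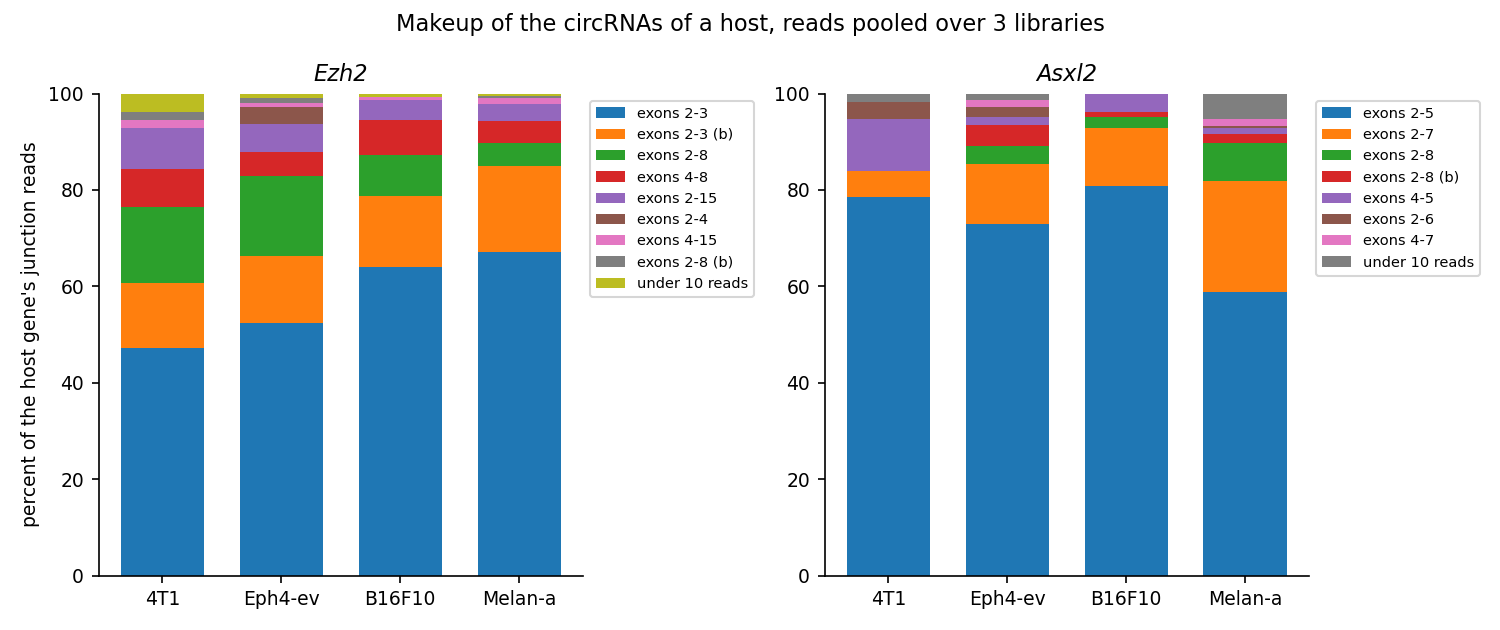
Makeup of the circRNAs of Ezh2 (left) and Asxl2 (right), as the percent of the host's junction reads pooled over 3 libraries of each line; each colour is a circRNA by its exons, and (b) marks another exon end (Ezh2) or another exon of the same number (Asxl2). Ezh2 exons 2 to 8 take 15.7% in 4T1, 16.7% in Eph4-ev, 8.67% in B16F10 and 4.77% in Melan-a. Asxl2 exons 2 to 5 take 80.8% in B16F10 and 58.9% in Melan-a.

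Asxl2 sums lay close in the melanocyte lines, at 3387 ± 366 RPM in B16F10 and 3156 ± 614 RPM in Melan-a (SD, n = 3 each), while the share of the leading circRNA stood apart. The circRNA of exons 2 to 5 made up 72.5%, 85.7% and 86.0% of Asxl2 reads in B16F10, against 65.1%, 57.4% and 56.4% in Melan-a. All 3 B16F10 libraries lay above all 3 Melan-a libraries, a difference of 21.8 percentage points (exact two-sided permutation p = 0.1, the smallest that 3 against 3 allows). How many other hosts had a leading share that stood apart in this way was not counted. Exons 2 to 7 had 15, 2 and 5 reads in B16F10, against 15, 21 and 25 in Melan-a (-0.92 on the log2 scale, SE 0.56; adjusted p = 0.358 by edgeR). Its log2 fold was -1.87 without B16F10 replicate 1 and -0.48 without B16F10 replicate 2, and it was not called in either. Exons 2 to 8 ending at 3484608 had 0, 4 and 0 reads in B16F10, against 1, 15 and 5 in Melan-a. Melan-a held 10 different Asxl2 circRNAs and B16F10 held 5; at the depth of B16F10, 53651 reads, 9.21 would be seen in Melan-a on average. For 4T1 and Eph4-ev the same values were 4.56 and 8.02. This evens out all junction reads and not the Asxl2 reads. Those numbered 56 in 4T1, 385 in Eph4-ev, 182 in B16F10 and 265 in Melan-a.

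Kdm6a had the same direction on few reads, and here too no count over other hosts was made. Its leading circRNA made up 88.9%, 100% and 100% of Kdm6a reads in B16F10, against 33.3%, 64.3% and 83.3% in Melan-a, a difference of 36.0 percentage points (exact two-sided permutation p = 0.1), or 22.5 points without Melan-a replicate 1. The remainder in Melan-a was the circRNA of exons 19 to 23, with 1, 0 and 0 reads in B16F10, against 4, 5 and 2 in Melan-a, a pooled RPM ratio of 0.142 (95% exact counting interval 0.00330 to 0.977). In the mammary lines it was Eph4-ev that held this circRNA. The shares of Ezh2 exons 2 to 3 and Eed exons 9 to 11 differed by -1.41 and -1.01 percentage points, B16F10 minus Melan-a (exact two-sided permutation p = 0.8 and p = 1). Eed exons 9 to 11 was the only Eed circRNA in Melan-a, with all 99 reads, and had 79 of 80 reads in B16F10.

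**Figure D4:**
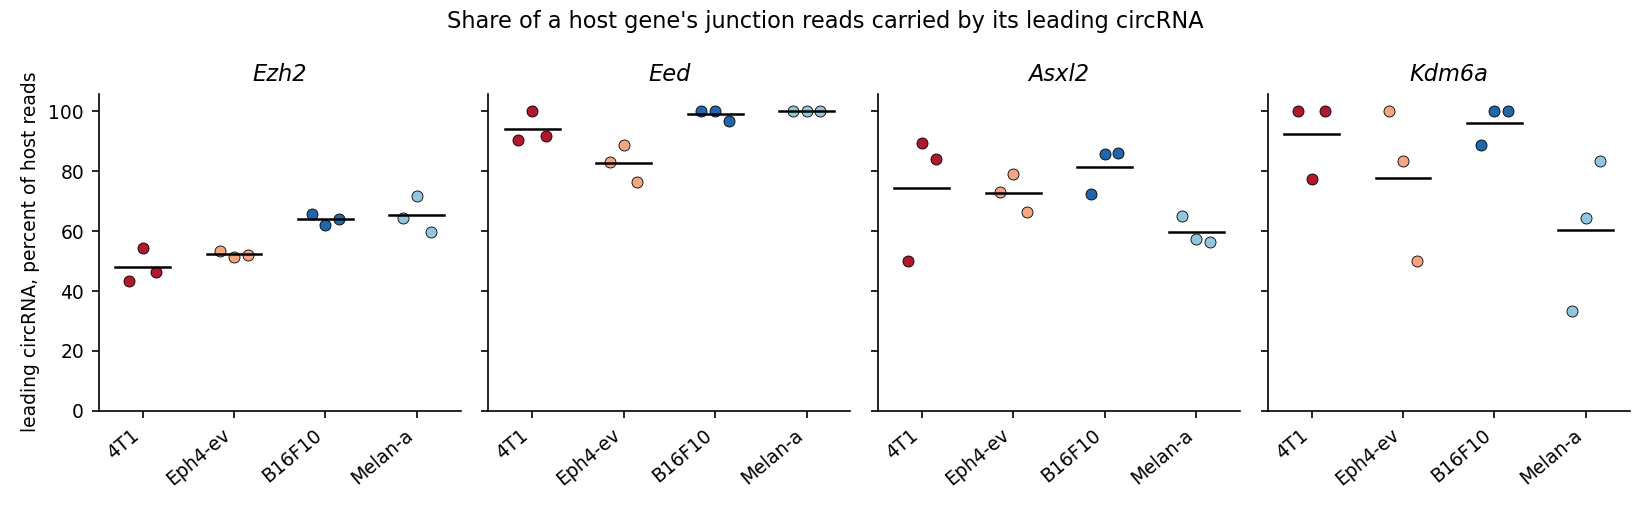
Percent of a host's junction reads carried by its leading circRNA in each library; lines are means of 3 libraries. For Asxl2 and Kdm6a the 3 B16F10 libraries lie above the 3 Melan-a libraries, with means of 81.4% against 59.6% for Asxl2 and 96.3% against 60.3% for Kdm6a. How many other hosts do so was not counted.

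The remaining 11 circRNAs had under 10 reads each over the 12 libraries. Among them, Kdm6a exons 6 to 10 had 9 reads, 5 in 4T1 replicate 2 and 4 in Eph4-ev replicate 2. Of all 31 circRNAs, 12 had reads in each of the 4 lines and 7 had reads in each of the 12 libraries. In the authors' annotation columns 27 of the 29 listed in the mammary table and 28 of the 30 in the melanocyte table carried a circRNA database identifier, against 81.2% and 78.0% of all rows of these tables.

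The other genes of the pathway gave few circRNA reads. Of 60 genes of PRC2, PRC1, PR-DUB and the enzymes that act on lysine 27 besides the 4, 32 had reads in the mammary table and 16 could be tested. In 4T1 relative to Eph4-ev 1 was higher and 2 were lower, against 6.86% of all tested hosts higher and 10.6% lower; the median log2 fold was -0.02 for the 16 and -0.09 for all hosts. Lcor, which in one of its transcript forms encodes a PRC2 accessory protein, had 9, 6 and 22 reads in 4T1, against 58, 74 and 63 in Eph4-ev, and fell by 1.47 on the log2 scale (SE 0.38, edgeR adjusted p = 0.0149). Scmh1, a PRC1-associated protein, had 8, 2 and 11 reads in 4T1, against 46, 61 and 59 in Eph4-ev, and fell by 1.99 on the log2 scale (SE 0.49, adjusted p = 0.0115). Both lost the call without Eph4-ev replicate 2 (adjusted p = 0.0932 and 0.0986).

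Mbd5, a partner of PR-DUB, had 3, 7 and 20 reads in 4T1, against 3, 2 and 3 in Eph4-ev (2.64 on the log2 scale, SE 0.86; adjusted p = 0.0448 by edgeR). It lost the call without 4T1 replicate 2 or 3 or without any 1 Eph4-ev library (adjusted p from 0.0847 to 0.219), and also without the filter (0.148). Suz12, the PRC2 subunit that holds the complex together, had 5, 5 and 7 reads in 4T1, against 3, 5 and 6 in Eph4-ev (1.34, SE 0.89, adjusted p = 0.339), and Rbbp4, its histone-binding subunit, had 11, 6 and 13 reads in 4T1, against 18, 10 and 18 in Eph4-ev (0.43, adjusted p = 0.695). Aebp2, a PRC2 accessory factor, was the most read gene of the list besides the 4, with 546 reads; it had a log2 fold of -0.83 in 4T1 (SE 0.35, adjusted p = 0.114).

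By group, 0 of the 2 tested PRC2 core genes besides Ezh2 and Eed, 1 of 4 PRC2 accessory genes, 1 of 3 PRC1 genes, 1 of 3 PR-DUB genes, 0 of 2 genes of the demethylase complexes and 0 of 2 acetyltransferases were called in the mammary lines. Among those not called, Kmt2c, a methyltransferase that works in a complex with Kdm6a, averaged 572 ± 390 RPM in 4T1 and 187 ± 61.2 RPM in Eph4-ev, and 525 ± 271 RPM in B16F10 and 285 ± 160 RPM in Melan-a (SD, n = 3 each). Ncoa6, of the same complex, averaged 732 ± 188 RPM in 4T1 and 677 ± 46.2 RPM in Eph4-ev, and 401 ± 145 RPM in B16F10 and 497 ± 368 RPM in Melan-a. The other genes set aside for naming were sparser: over all 12 libraries Foxk2 had 67 reads, Asxl1, the relative of Asxl2, 64, Rnf2, the ubiquitin ligase of PRC1, 60, Usp7 51 and Paxip1 27. Ezh1, the relative of Ezh2, had 5 reads, all of them in Eph4-ev.

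Between the melanocyte lines, 26 of the 60 genes had reads and 9 could be tested. Of these 9, 0 were called by edgeR and 0 by DESeq2, against 7.13% and 6.01% of all tested hosts, and 0 reached an unadjusted p under 0.05 by edgeR, against 21.2%; the median log2 fold was 0.32 for the 9, against -0.00 for all hosts. The largest, Lcor, had 10, 7 and 7 reads in B16F10, against 9, 5 and 0 in Melan-a (1.29, SE 0.82, edgeR adjusted p = 0.398). Lcorl, its relative, had 6, 0 and 7 reads in B16F10, against 17, 15 and 13 in Melan-a (-1.25, SE 0.72, adjusted p = 0.360). The acetyltransferases of lysine 27, Crebbp and Ep300, were read in every library. Crebbp averaged 777 ± 161 RPM in 4T1, 1012 ± 116 RPM in Eph4-ev, 693 ± 225 RPM in B16F10 and 531 ± 162 RPM in Melan-a, and Ep300 averaged 823 ± 143 RPM in 4T1, 782 ± 125 RPM in Eph4-ev, 947 ± 50.6 RPM in B16F10 and 872 ± 414 RPM in Melan-a (SD, n = 3 each).

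**Figure D5:**
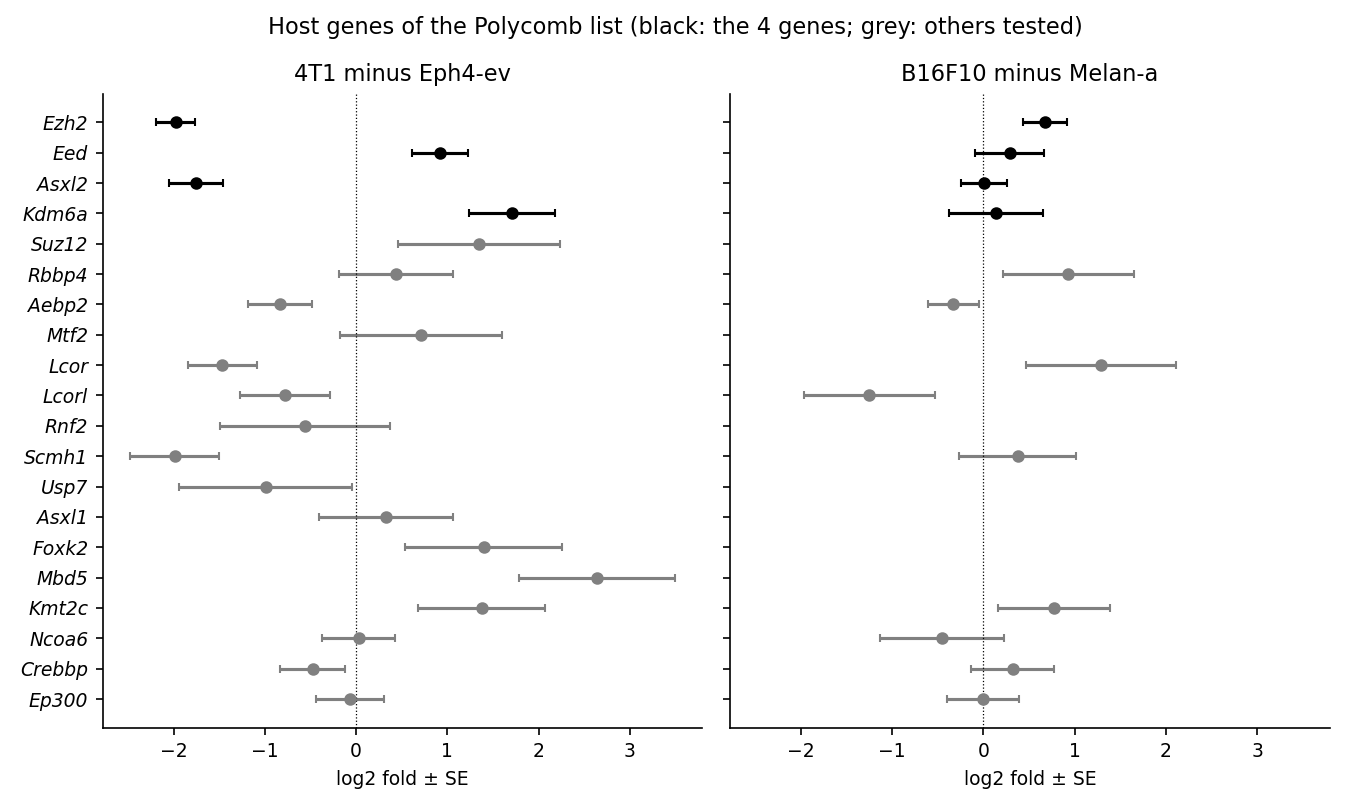
Log2 folds with SE of the host sums in 4T1 minus Eph4-ev (left) and B16F10 minus Melan-a (right) for Ezh2, Eed, Asxl2 and Kdm6a in black and the other tested genes of the Polycomb list in grey. Ezh2 lies at -1.98 on the left and 0.67 on the right; genes without a point on the right did not pass the filter there.

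Some other hosts ran close to the 4 across the 12 libraries. Likeness was the mean absolute difference of log2(RPM + 50), after each host was centred on its own mean. It was taken over 1128 hosts, the gene itself included, that were listed for both lineages with at least 60 reads. Nearest to Ezh2 were Mettl15 (0.355) and Rfx7 (0.377), with a median over hosts of 1.19. Both had few reads, 63 for Mettl15 and 103 for Rfx7. Mettl15 averaged 0 RPM in 4T1, 133 RPM in Eph4-ev, 278 RPM in B16F10 and 308 RPM in Melan-a. Its order of the melanocyte lines was thus the reverse of that of Ezh2. Nearest to Eed were Adam9 (0.326) and Phtf2 (0.335), nearest to Asxl2 were Rnf169 (0.309) and Rev1 (0.315), and nearest to Kdm6a were Faf1 (0.322) and Ckap5 (0.357). Rnf169, the most read of these with 1539 reads, averaged 1668 RPM in 4T1 and 3367 RPM in Eph4-ev, and 6211 RPM in B16F10 and 6549 RPM in Melan-a. The libraries of a line share their depth and line, so the 12 values are not independent.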

How the data were processed

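Back-spliced junction reads of 4 mouse cell lines, 3 RNase R-treated libraries each, were taken from 1 deposited table per lineage. Per the labels' protocols, CIRI2 (after BWA-MEM) and CIRCexplorer2 (after TopHat and TopHat-Fusion) called the circRNAs. The submitters' processing notes give mm10 as the build. How the callers' reads were combined and filtered is not given in the sources used here. The count columns hold raw junction reads, per the file headers. The RPM columns, deposited by the authors, equal each count divided by its column total and scaled. No molecular identifiers are mentioned, so reads may not be independent molecules.

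For a host value, the counts of its circRNAs with no second host were added up. Each lineage was fitted alone over its whole table with edgeR 4.0.16 in R 4.3.3 (quasi-likelihood F test, TMM factors, minimum count of 5 and minimum total of 10, library sizes from all junction reads), Benjamini-Hochberg adjusted over all tested features and called at an adjusted p under 0.05; SE come from the F statistic. Alternatives were RLE factors, total-read scaling, no filter, DESeq2 1.42.0, a higher minimum count of 10, a block for replicate number and leaving out each library. Fits were tested on simulated counts. Shares were compared with exact permutation tests over libraries. Exons and transcript sequences are GENCODE M21. Depth is 15572 to 56649 reads per library, so 1 read is worth 17.7 to 64.2 RPM.

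The 4 genes, the 60 other Polycomb genes and the marker lists were chosen with earlier results of these data known. Named are the 4 genes, their circRNAs with at least 10 reads, and list genes called in either comparison or among the 3 most read of their group; for each of the 4, the 2 nearest hosts. Flanking introns and exon counts were taken from the transcript that matched both ends.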

Additional observations from a re-analysis of the deposited data

Results flagged for a closer look

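Only the Polycomb list, with the 4 genes, was looked through here. For 2 of its hosts all tumour-line libraries moved one way in the mammary lineage and the opposite way in the melanocyte lineage. How many other hosts of the series did the same was not counted. Ezh2 had a log2 fold of -1.98 in 4T1 relative to Eph4-ev and of 0.67 in B16F10 relative to Melan-a. Lcor had -1.47 in 4T1 relative to Eph4-ev and 1.29 in B16F10 relative to Melan-a, the second from 24 reads in B16F10 and 14 in Melan-a. The difference between the lineages was not tested for either gene, and the Ezh2 value in 4T1 is one on which the gene was chosen.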

How the results depend on the processing

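Of 353 values under alternatives, 309 stayed within the bounds set for them: a tested fold kept its direction and its side of the threshold, a value with no test moved by less than 1 SD between libraries, and a count stayed within 1.5 times. Among these the difference in the leading share of Ezh2, -1.41 percentage points, changed sign to 1.82 without Melan-a replicate 2. With each library left out in turn, called hosts numbered 73 to 261 between 4T1 and Eph4-ev (265 with all libraries) and 32 to 123 between B16F10 and Melan-a (64), and called circRNAs 72 to 247 (325) and 42 to 145 (95). The lowest mammary counts came without Eph4-ev replicate 2 and the highest melanocyte counts without Melan-a replicate 2. The Ezh2 fold between B16F10 and Melan-a was 0.73 with DESeq2, which called it, and 0.54 to 0.98 with libraries left out. The Asxl2 fold ran from -0.14 to 0.15 (-0.03 without B16F10 replicate 2, -0.14 without Melan-a replicate 1) and the Kdm6a fold from -0.10 (without Melan-a replicate 1) to 0.32. The fold of Eed exons 9 to 11 ran from -0.017 (without Melan-a replicate 3) to 0.64. The causes were not tested.

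Deviations of same-numbered libraries had correlations of -0.0180 to 0.0159 in the mammary and 0.0260 to 0.0890 in the melanocyte table. Differently numbered libraries had -0.0306 to 0.0183 in the mammary and -0.0686 to 0.0191 in the melanocyte table. Every same-numbered value thus lay above the others in the melanocyte table only. The main fits did not pair libraries by number, and whether the melanocyte libraries are paired was not tested. With replicate number as a block, the Ezh2 sum stayed uncalled between B16F10 and Melan-a (edgeR adjusted p = 0.0889). With replicate number as a block, 217 hosts and 248 circRNAs were called in the mammary and 69 and 78 in the melanocyte table, and Mbd5 lost its call (adjusted p = 0.167). Total-read scaling moved the median fold of all hosts from -0.09 to 0.04 in the mammary table and from -0.00 to 0.10 in the melanocyte table, and the calls between the melanocyte lines were then 34 higher and 32 lower, against 25 and 39 with TMM factors; the signs of the 4 hosts held under it. Depth limits what can be said of circRNAs with few reads, above all for Kdm6a, with 24 to 82 reads per line.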
